A study of Mus musculus with 4 samples.

Results

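The genes described here encode 9 transcription factors that direct effector regulatory T (Treg) cells and the helper T cell lineages, namely Gata3, Irf4, Batf, Prdm1, Maf, Tbx21, Bcl6, Nfil3 and Id2. They were taken by gene symbol from a table of 24418 genes, and all 9 were found in it. Treg cells were sorted as CD4+ YFP+ cells of Foxp3 YFP-Cre mice (spleens and lymph nodes), in which the Foxp3 locus drives a yellow fluorescent protein joined to Cre. All 4 samples were of this genotype. The cells were held for 3 h with PBS or with TSLP at 100 ng/mL, with 2 samples a group, named PBS 1, PBS 2, TSLP 1 and TSLP 2. Nothing in the labels says whether the samples of a group came from different mice, so the p-values measure the spread between these samples, which may be technical. The depth was 11328132 reads on genes (PBS 1), 10724392 (PBS 2), 11761234 (TSLP 1) and 10271571 (TSLP 2).

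TSLP is an epithelial cytokine whose receptor pairs TSLPR with CD127 and signals through STAT5. On activation, resting Treg cells become effector Treg cells, a step that needs IRF4 with its partner BATF and that is marked by BLIMP-1, the product of Prdm1. Effector Treg cells also take up factors of the helper lineages, such as GATA3 of type 2, T-bet (Tbx21) of type 1 and BCL6 of follicular helper cells. BCL6 and BLIMP-1 repress each other's genes. Whether such factors differ in Treg cells after TSLP, with PBS as the control, was the question of the comparison.

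The sorted cells carried the RNA of Treg cells in every library. Foxp3, the lineage factor of Treg cells, had 2514 reads (PBS 1), 5065 (PBS 2), 4784 (TSLP 1) and 4824 (TSLP 2), so that PBS 1 was lowest. Ctla4, Ikzf2 and Cd4 had the most reads of 9 Treg and T cell identity genes. PBS 1 also stood apart more widely. It was the highest or the lowest library in 68.1% of 11392 genes tested, against 45.1% for PBS 2, 41.3% for TSLP 1 and 45.6% for TSLP 2. Of the 9 factors, PBS 1 was highest in 5 and lowest in 2. In PBS 1, the log2 ratio to the other libraries was lower for longer exons (Spearman rho −0.657, over 2679 genes averaging 1000 reads or more, which are not independent replicates).

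The factors were ranked by level, as RPKM (reads scaled to exon length and to the reads on genes of the library), averaged over the 4 libraries. Irf4 was the highest, at 85.5 ± 9.27 (SD, n = 4), which is above 96.5% of the 13042 genes with more than 3 reads in a library and a known length. Its level was close to that of Foxp3, at 85.8 ± 25.7 (SD, n = 4). Nfil3, a basic leucine zipper repressor, followed at 73.0 ± 16.4 and Gata3 at 59.4 ± 13.6 (SD, n = 4). Id2, which binds E proteins and keeps them off DNA, was at 42.7 ± 5.67 (SD, n = 4). Bcl6 was at 30.7 ± 3.81, Batf at 29.3 ± 7.86 and Maf at 20.49 ± 1.67 (SD, n = 4). Below a gap of 4.44-fold came Prdm1, at 4.61 ± 1.58 (SD, n = 4), and Tbx21, at 3.07 ± 0.202 (SD, n = 4). These are above 49.4% and 42.4% of the same genes.

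Only the gaps between Gata3 and Id2 and between Maf and Prdm1 were free of overlap between the ranges of neighbours over the 4 libraries. Nfil3 lay above Gata3 and Batf above Maf in 4 of 4 libraries, although their ranges over libraries overlapped. Irf4 lay above Nfil3, Id2 above Bcl6, Bcl6 above Batf and Prdm1 above Tbx21 in 3 of 4 libraries, so that these orders did not hold in every library. Of the lineage factors, Gata3 was thus the highest, followed by Bcl6 and, far lower, by Tbx21. The RPKM ratio of Gata3 to Tbx21 was 25.2 (PBS 1), 14.3 (PBS 2), 21.998 (TSLP 1) and 16.4 (TSLP 2), and the groups overlapped. These ranks rest on the length taken for each gene. Per kilobase of the longest protein-coding transcript, Bcl6 was at 58.4 and Id2 at 52.9 RPKM, which puts Bcl6 above Id2, and Gata3 passed Nfil3.

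**Figure D1:**
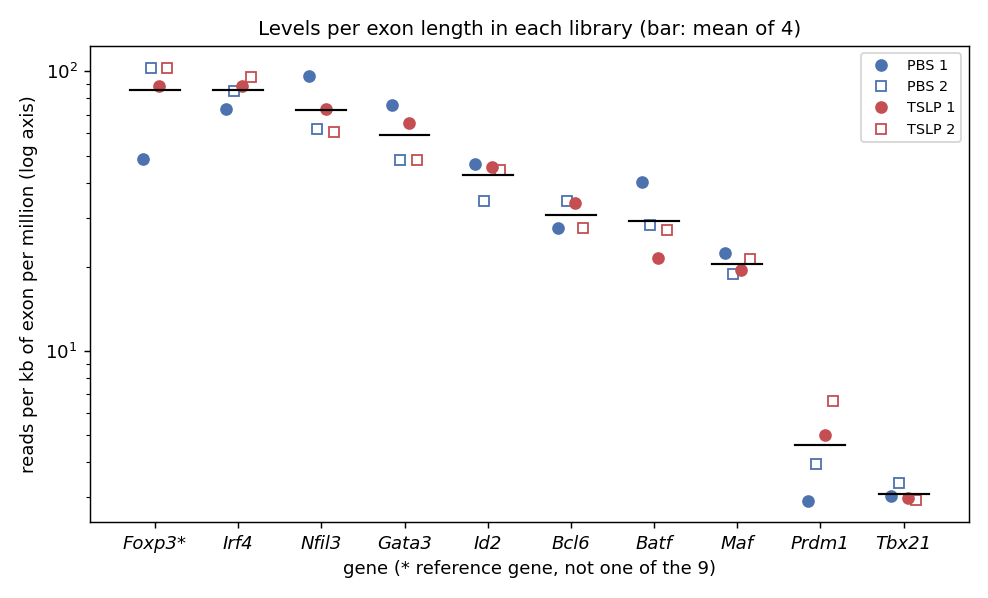
RPKM (log axis) of the 9 factors, with Foxp3 as a reference gene, in each of the 4 libraries; the bar is the mean of 4. The means of 7 factors lie between 20.49 and 85.5, and those of Prdm1 and Tbx21 are 4.61 and 3.07.

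By limma on log2(normalized count + 1), 0 of the 9 factors had an adjusted p under 0.05 between TSLP and PBS after Benjamini-Hochberg adjustment over 11392 genes, and 0 had an unadjusted p under 0.05. The share of all genes tested that was called was 0% at the adjusted and 1.69% at the unadjusted limit, with 0.772% higher and 0.913% lower. At the unadjusted limit, edgeR called 1 factor, Prdm1, beside 2.05% of all genes, and DESeq2 called 0, beside 214 of 11392. All adjusted p-values of the 9 genes were 0.9999 by limma. The median log2 fold change of the 9 was −0.01, beside 0.01 over all genes tested, with 3 factors higher and 6 lower. The normalized count is the authors' reads per gene divided by the size factor of the library. For 4 factors the groups did not overlap, Prdm1 and Irf4 being higher and Batf and Tbx21 lower in both TSLP libraries, beside 28.9% of all genes tested. An exact permutation test of 2 samples against 2 cannot go below p = 0.333. In RNA of whole samples, fewer cells expressing a gene and less RNA per cell cannot be told apart.

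**Figure D2:**
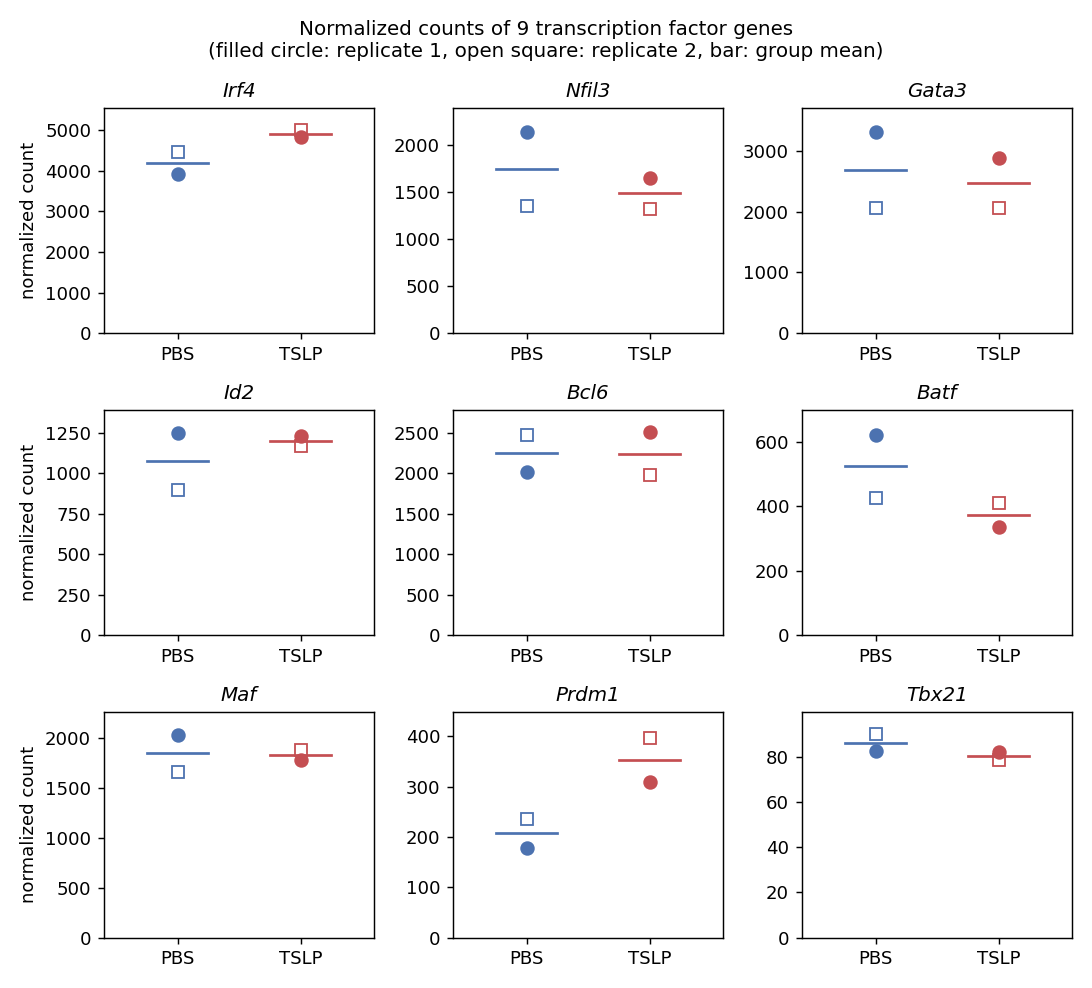
Normalized counts (vertical axis, from 0, with its own scale for each gene) of the 9 factors in the PBS and TSLP libraries; the bar is the group mean of 2. Both TSLP libraries lie above both PBS libraries in Irf4 and Prdm1 and below them in Batf and Tbx21, and the groups overlap in the other genes.

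Prdm1 encodes BLIMP-1, a zinc finger repressor of effector lymphocytes. In mm10 (GRCm38), the build of all positions here, it is at chr10:44437177-44528501 (reverse strand). Its normalized count was 178 (PBS 1), 236 (PBS 2), 308 (TSLP 1) and 396 (TSLP 2). Each TSLP library was thus above each PBS library. The PBS mean was 207 ± 40.9 (SD, n = 2), and the TSLP mean was 352 ± 62.2 (SD, n = 2), or 1.70 times as high. The log2 fold change of 0.76 (standard error 0.35, 95% interval −0.03 to 1.56) was the largest in size of the 9, and by limma it had an unadjusted p = 0.0569 and an adjusted p = 0.9999. By edgeR on recovered reads the unadjusted p was 0.0486, and 0.0436 with the replicate number as a block, and by DESeq2 it was 0.0942. Leaving out each library in turn gave log2 fold changes from 0.56 to 0.97.

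Prdm1 is also the factor of plasma cells, so their markers were read beside it. The summed level of 5 plasma cell genes in CPM, reads scaled to an equal library size, was 221 (PBS 1), 130 (PBS 2), 156 (TSLP 1) and 145 (TSLP 2), nearly all of it from Xbp1, which T cells express too. Mzb1 and Tnfrsf17 had no reads in any library. Jchain had 39 reads in TSLP 1, 9 in TSLP 2 and 0 with PBS, and Sdc1 had 47 and 5 (PBS) against 20 and 46 (TSLP). Jchain, like Prdm1, was higher in both TSLP libraries, although its order within TSLP was the reverse, and its part in the values of Prdm1 was not tested.

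The promoter of Prdm1 is shown because this gene had the largest log2 fold change of the factors. The RefSeq window (GRCm38.p6) holds the 250 bases before an annotated start, at chr10:44458749-44458998 on the reverse strand. It lies inside the gene as GENCODE M21 bounds it, and is printed 5′ to 3′. Capitals mark a match to TGANTCA, the AP-1 site that BATF binds with a JUN partner, searched on both strands. It was 1 of 6 motifs searched in the windows of the factors.
Prdm1: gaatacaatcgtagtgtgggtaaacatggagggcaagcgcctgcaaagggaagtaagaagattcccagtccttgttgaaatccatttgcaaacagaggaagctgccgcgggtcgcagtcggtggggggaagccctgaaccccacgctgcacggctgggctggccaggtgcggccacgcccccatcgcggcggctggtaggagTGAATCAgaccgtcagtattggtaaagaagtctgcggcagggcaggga
The match starts 48 bases before the annotated start. This motif is in 6.75% of the 32851 such windows of all genes, and in 1 of the 9 windows of the 8 factors with an entry, Bcl6 having 2. A match is a description of the sequence, and binding was not measured.

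Irf4 is an interferon regulatory factor that acts with BATF in activated T cells, and is at chr13:30749226-30766976 (forward strand). Its normalized count was 3935 (PBS 1), 4469 (PBS 2), 4829 (TSLP 1) and 5005 (TSLP 2). The TSLP libraries were both higher, and the closest pair, PBS 2 and TSLP 1, was nearer than the PBS libraries were to each other. Its log2 fold change was 0.23 (standard error 0.22, 95% interval −0.26 to 0.72, unadjusted p = 0.315 and adjusted p = 0.9999 by limma). With a library left out, it ranged from 0.14 to 0.32.

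Batf, its small basic leucine zipper partner, is at chr12:85686669-85709087 (forward strand). It had a normalized count of 620 (PBS 1), 426 (PBS 2), 334 (TSLP 1) and 410 (TSLP 2). PBS 1 was far above the other libraries, and PBS 2 was close to TSLP 2. Its change on the log2 scale was −0.47 (standard error 0.31, 95% interval −1.17 to 0.23, unadjusted p = 0.161 and adjusted p = 0.9999 by limma), and −0.20 without PBS 1. Without PBS 2 it was −0.74 (unadjusted p = 0.0499 and adjusted p = 0.306 by limma), in a fit where 16.3% of all genes tested passed the unadjusted limit. With the trend of each library over exon length removed it was −0.30. The RPKM ratio of Irf4 to Batf, chosen after the values were seen, was 1.82 and 3.01 (PBS) against 4.14 and 3.503 (TSLP). With Irf4 higher and Batf lower in both TSLP libraries, a higher ratio in both was fixed beforehand. The ratio does not depend on the scaling of a library. A trend over exon length is not removed from it, Irf4 having 4903 exon bases and Batf 1406.

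Maf, whose product c-MAF drives IL-10 in T cells, is at chr8:115682942-115707794 (reverse strand). Its normalized counts were 2033 and 1659 (PBS) against 1781 and 1879 (TSLP), so that the TSLP libraries lay between the PBS libraries. The log2 fold change was −0.01 with a 95% interval from −0.50 to 0.49. Il10 itself, named after its values were seen, had 701 and 456 reads (PBS) against 340 and 464 (TSLP), and the groups overlapped (log2 fold change −0.50, unadjusted p = 0.167 and adjusted p = 0.9999 by limma).

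Among the lineage factors, Gata3 is at chr2:9857078-9890034 (reverse strand). It had a normalized count of 3316 (PBS 1), 2063 (PBS 2), 2883 (TSLP 1) and 2055 (TSLP 2). The ratio within a group was larger than that between the groups, at 1.61 within PBS and 1.40 within TSLP, while the mean with TSLP was 0.918 times that with PBS. Nfil3, which is needed for innate lymphoid cells and limits type 2 cytokines in T cells, is at chr13:52967209-52981073 (reverse strand). It showed the same order of libraries, with 2134 and 1348 (PBS) against 1648 and 1316 (TSLP). The log2 fold changes were −0.10 (95% interval −0.75 to 0.54) for Gata3 and −0.20 (95% interval −0.82 to 0.41) for Nfil3. Both changed sign without PBS 1, to 0.24 and 0.13. The annotation holds 9230102O04Rik on the strand of Gata3 with 77 shared exon bases, and it had no more than 16 reads in a library. Exons of Gata3, Maf and Bcl6 also share 155, 440 and 21 bases with transcripts on the opposite strand, and with the strand setting of the counting not given, such reads cannot be told apart.

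Tbx21 is at chr11:97098071-97115331 (reverse strand), and was the factor with the fewest reads. It had 85 and 90 reads (PBS) against 87 and 75 (TSLP). The normalized counts were 82.4 and 90.0 (PBS) against 82.0 and 78.4 (TSLP), so that the groups were separated by less than 1 normalized count. The log2 fold change of −0.10 had a 95% interval from −1.33 to 1.12, the widest of the 9, and it was 0.0057 with the trend over exon length removed. Markers of NK cells, which express Tbx21, summed to 3.44 and 5.59 CPM (PBS) against 6.55 and 19.7 (TSLP). These were led by Eomes, with 21 and 41 reads (PBS) against 23 and 83 (TSLP), and Prf1, with 0 and 10 and with 13 and 89. Ncr1, Klra4 and Klra8 had no reads in any library. The sum, Eomes, Prf1 and Klrb1c (25 reads) were highest in TSLP 2, whereas Gzma (15 reads) and Klrk1 (13 reads) were highest in TSLP 1 and Klrb1b (10 reads) in PBS 1. Their part in the values of Tbx21 was not tested.

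Bcl6 is at chr16:23965052-23988852 (reverse strand). Its normalized count was 2016 (PBS 1), 2471 (PBS 2), 2501 (TSLP 1) and 1978 (TSLP 2). The groups overlapped fully, with means of 2244 ± 322 (SD, n = 2) and 2240 ± 370 (SD, n = 2). Between them the log2 fold change was −0.0049, with a 95% interval from −0.53 to 0.52. The RPKM ratio of Bcl6 to Prdm1, chosen after the values were seen, was 9.41 (PBS 1), 8.71 (PBS 2), 6.76 (TSLP 1) and 4.16 (TSLP 2). It was lower in both TSLP libraries, and it carries the difference in Prdm1 with it.

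The windows before both annotated starts of Bcl6 are shown because STAT proteins, which act below the TSLP receptor, and BCL6 itself recognise like sequences. Capitals mark TTCNNNGAA, the STAT site, which reads the same on either strand and was another of the 6 motifs searched. The upstream window is chr16:23988853-23989102 and the downstream one, inside the gene, is chr16:23981284-23981533, both on the reverse strand of GRCm38.p6 and from RefSeq.
Bcl6, upstream start: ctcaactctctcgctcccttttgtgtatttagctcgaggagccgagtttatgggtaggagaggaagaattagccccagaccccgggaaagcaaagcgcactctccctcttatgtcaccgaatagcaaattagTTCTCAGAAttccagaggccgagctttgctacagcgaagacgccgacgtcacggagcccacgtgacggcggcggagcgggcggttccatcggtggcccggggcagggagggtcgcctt
Bcl6, downstream start: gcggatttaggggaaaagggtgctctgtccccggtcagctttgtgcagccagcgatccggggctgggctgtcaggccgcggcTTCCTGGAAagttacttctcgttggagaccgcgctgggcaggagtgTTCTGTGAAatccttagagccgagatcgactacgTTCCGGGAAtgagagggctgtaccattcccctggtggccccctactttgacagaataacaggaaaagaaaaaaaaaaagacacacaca
The upstream window holds TTCTCAGAA, and the downstream window holds TTCCTGGAA, TTCTGTGAA and TTCCGGGAA, which do not overlap one another. This motif is in 7.02% of the 32851 windows, and among the 9 windows of the factors these 2 hold it. Bcl6 had 2080 and 2470 reads (PBS) against 2655 and 1893 (TSLP), overlapping between the groups, and binding was not measured.

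Id2 is at chr12:25093799-25097140 (reverse strand). It had a normalized count of 1246 (PBS 1), 897 (PBS 2), 1228 (TSLP 1) and 1165 (TSLP 2). PBS 2 was low and the other libraries were alike. For Id2 the log2 fold change was 0.18 (standard error 0.25, 95% interval −0.38 to 0.74), and −0.06 without PBS 2. Its relative Id3 varied more, with 589 and 177 reads (PBS) against 463 and 293 (TSLP).

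**Figure D3:**
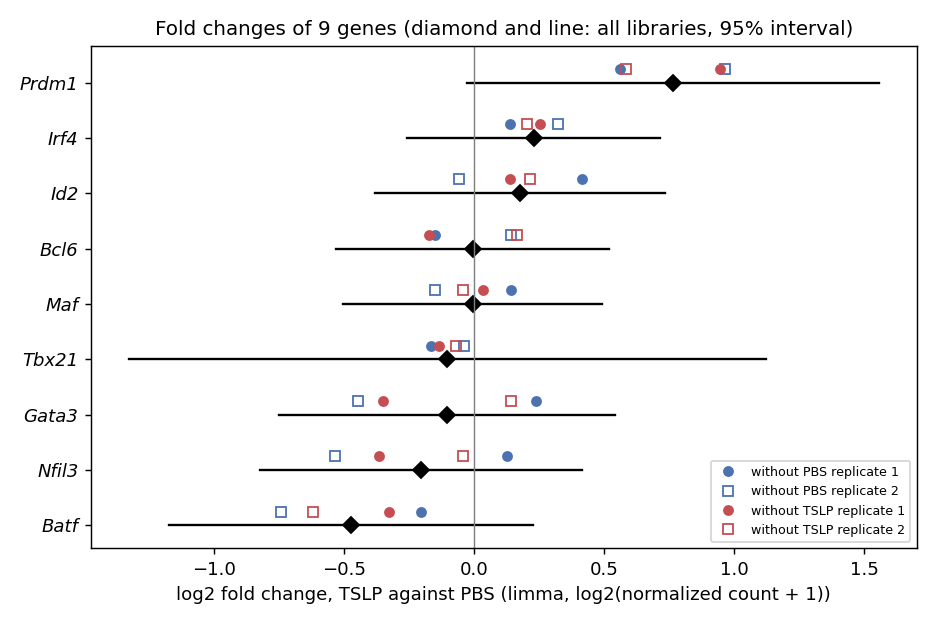
Log2 fold changes of the 9 factors, TSLP against PBS, by limma (diamond) with the 95% interval (line), and the value on leaving out each library in turn (coloured points above the line). All 9 intervals include 0, and the points of Gata3, Nfil3, Maf, Bcl6 and Id2 lie on both sides of 0.

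On leaving out a library the 5 factors whose groups overlap, Gata3, Nfil3, Maf, Bcl6 and Id2, changed sign in at least 1 fit. For the other 4 the lack of overlap fixes the sign in these fits, and Tbx21 changed sign with the length trend removed. In 7 of the 9 factors the PBS libraries differed from each other by a larger ratio than the group means did. Without PBS 1, the groups did not overlap in 6 factors, Maf and Id2 being added as higher with TSLP, beside 64.1% of all genes tested. Without PBS 2 they did not overlap in 8 factors, beside 76.3%, and there Maf and Id2 were lower with TSLP, as were Gata3 and Nfil3.

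**Figure D4:**
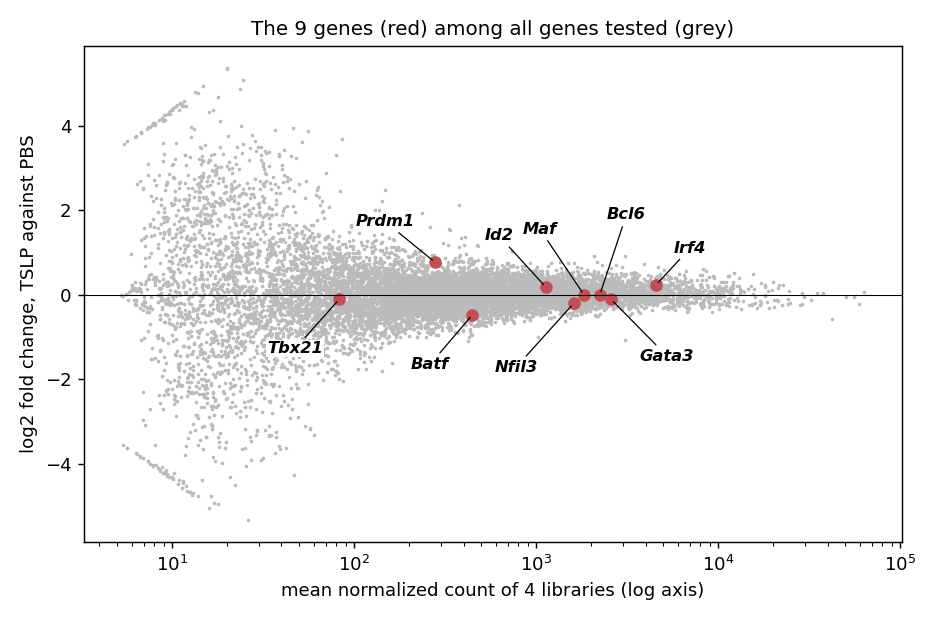
Log2 fold change, TSLP against PBS (vertical axis), over the mean normalized count of 4 libraries (log axis), for the 11392 genes tested (grey) and the 9 factors (red). Prdm1 at 0.76 and Batf at −0.47 lie farthest from 0 among the factors.

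Relatives and partners of the factors were read from a list of 24 genes, of which 19 passed the filter on low counts. Irf1, Irf2 and Nr1d2 had the most reads. Irf1, which is induced by interferons, was at 74.8 ± 6.50 RPKM (SD, n = 4), the relative nearest in level to Irf4, with Maff next at 49.8. Of the 19, 13 were higher and 6 lower with TSLP, the median log2 fold change being 0.09, and 0 had an unadjusted p under 0.05 by limma (1.69% of all genes tested). At the same limit edgeR with TMM and DESeq2 also called 0, beside 234 and 214 of all 11392 genes. With a library left out, the median ranged from −0.15 (without PBS 2) to 0.11 (without TSLP 2). Batf2 had no reads in any library, and Batf3 had 22 reads in PBS 1 and 0 elsewhere, so that Batf was the member of its family with reads in all libraries. Gata1 had 11 and 67 reads (PBS) against 64 and 13 (TSLP), far below Gata3.

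Of 14 other helper-lineage factors, 12 were tested, and Rora, Stat4 and Stat6 had the most reads. Stat4, which acts below the IL-12 receptor, was at 90.9 ± 6.64 RPKM (SD, n = 4). With TSLP 7 were higher and 5 lower, and the median log2 fold change was 0.05. That median ranged from −0.11 (without PBS 1) to 0.11 (without PBS 2). At an unadjusted p under 0.05, limma, edgeR with TMM and DESeq2 each called 0, beside 192, 234 and 214 of all 11392 genes. Hlx and Ascl2 had no reads in any library.

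Genes of effector Treg cells were given as a list of 20, all of which were tested. Tnfrsf9, Icos and Tnfrsf4, which are costimulatory receptors or part of that system, had the most reads. With TSLP 12 genes were higher and 8 lower, the median log2 fold change being 0.12. Without PBS 1, 16 were higher and 4 lower, and the median was 0.18. Without PBS 2, 11 were higher and 9 lower, and it was 0.11. In 7 of the 20 the TSLP libraries were both above the PBS libraries, and in 0 both below, beside 14.5% and 14.4% of all genes tested. The 7 were Icos, Il1rl1, Cd44, Ccr4, Ccr6, Lag3 and Havcr2, named after their values were seen. For Lag3 the closest pair was 99.05 (PBS 2) and 99.86 (TSLP 1) in normalized counts. In CPM that pair was 9.23 and 9.01, so that its groups overlapped. Ccr6, a chemokine receptor of type 17 and effector Treg cells, was the gene here that limma gave an unadjusted p under 0.05, a limit that 0.772% of all genes passed as higher. It had 137 and 164 reads (PBS) against 320 and 262 (TSLP). The fitted log2 difference was 0.96 (standard error 0.37; unadjusted p = 0.0299 and adjusted p = 0.9999 by limma), and by DESeq2 the unadjusted p was 0.0529. Leaving out PBS 1 gave an unadjusted p = 0.0742 by limma.

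The lists of lineage genes were read beside their factors. Il4ra, Il1rl1 and Ccr8 had the most reads of 11 type 2 genes. Of the 11, 8 were tested, 6 higher and 2 lower, with the median log2 fold change at 0.26. Without PBS 2, 4 were higher and 4 lower, and the median was 0.15. Il13, a type 2 cytokine gene that GATA3 controls, had 25 reads in TSLP 1, 29 in TSLP 2 and 0 with PBS (unadjusted p = 0.0447 and adjusted p = 0.9999 by limma). It passed the filter on low counts through the TSLP libraries alone. Its p-value and its place among the higher genes were thus conditioned on the difference itself. The median was the same with Il13 set to its bound against 3 reads a library. Il5 had 21 reads in PBS 2 and 10 in TSLP 1 and none elsewhere, and Il9 had none in any library. Il18r1, Cxcr6 and Il18rap had the most reads of 10 type 1 genes. Of the 10, 9 were tested, 3 higher and 6 lower, with a median of −0.07. Without PBS 1, 6 were higher and the median was 0.11, and without TSLP 2, 2 were higher and it was −0.21.

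**Figure D5:**
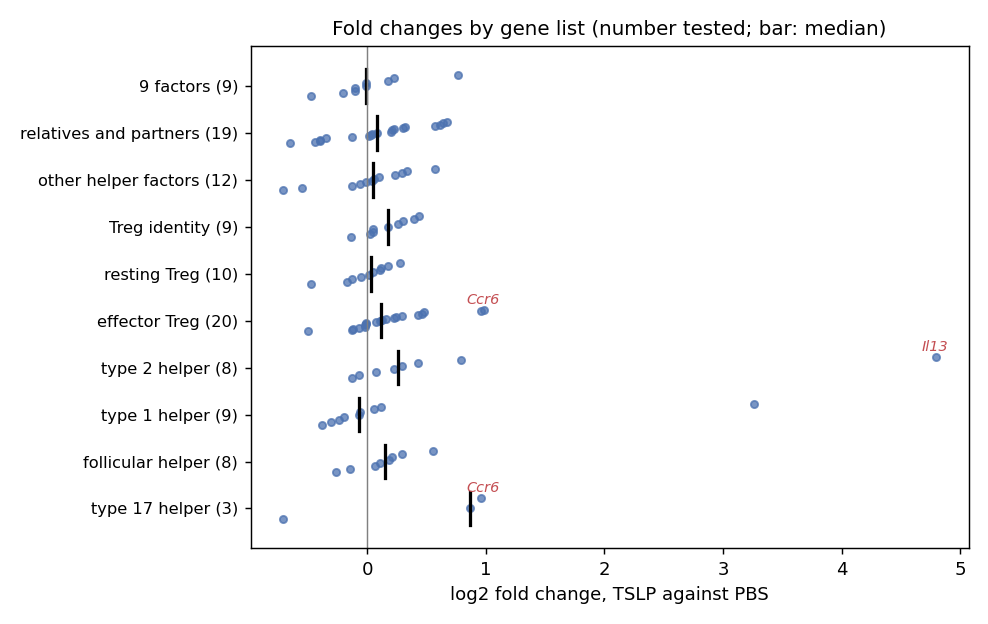
Log2 fold changes, TSLP against PBS, of the tested genes of each list (points, number tested in brackets) with the list's median (bar); genes with an unadjusted p under 0.05 by limma are named. The 9 factors have a median of −0.01, and the point of Il13, which had no reads with PBS, depends on the pseudocount of 1.

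Markers of other cells were read last. Cd8a and Cd8b1 of CD8 T cells summed to 13.4 and 7.83 CPM (PBS) against 8.84 and 11.97 (TSLP). The 5 B cell genes summed to 0.618 and 10.4 (PBS) against 5.02 and 9.35 (TSLP), led by Cd79b, and Pax5 had no reads in any library. The 6 myeloid genes summed to 17.6 and 11.9 (PBS) against 8.59 and 9.54 (TSLP), Cd68 (174 and 66 reads with PBS, 59 and 16 with TSLP) having the most reads over all libraries. Itgam, with 23 and 19 reads (PBS) against 4 and 7 (TSLP), was likewise lower in both TSLP libraries. Lyz2, with 1 and 43 reads (PBS) against 37 and 40 (TSLP), did not follow them, and Adgre1 had no reads in any library. Csf1r, with 1 and 0 reads (PBS) against 1 and 27 (TSLP), and Marco, with 0 and 0 against 0 and 8, were highest in TSLP 2. Group 2 innate lymphoid cells, which need Gata3, share Il1rl1 with Treg cells. Il1rl1 led their list of 7 genes, which summed to 240 and 322 (PBS) against 313 and 340 (TSLP). Il13 is on this list too. It had reads in the TSLP libraries alone and passed the filter on low counts through them, so it could only be counted as higher. Of the 7, 5 were tested, 5 higher and 0 lower with TSLP, the median log2 fold change being 0.30. Without PBS 1, 2 were higher and 3 lower, and the median was −0.31. The part of these cells in the values of the factors was not tested.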

How the data were processed

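Per the labels and the study's methods, libraries from a directional kit were sequenced as 50-base single-end reads, mapped to mm10 with Hisat2 and counted with HTSeq; the annotation and strand setting of the counting are not given in the sources used here. The deposited values are a signal, the authors' reads per gene divided by a DESeq2 size factor for each library. All 4 columns were whole multiples of a single step (100% of values within 0.01), so reads were recovered. The values are not whole numbers, so limma 3.58.1 (R 4.3.3, variance trend) was fitted to log2(normalized count + 1) over the 11392 genes that reached 10 normalized counts in 2 or more libraries, with Benjamini-Hochberg adjustment over all of them. edgeR 4.0.16 with TMM and DESeq2 1.42.0 on the recovered reads were alternatives, as were other filters, pseudocounts and scalings, a replicate block, removal of the trend over exon length, and leaving out each library. The fit was tested on simulated data, drawn without a trend over exon length and without a library that stands apart as PBS 1 does. No reads allow up to 3 reads, or 0.255 to 0.292 CPM, for counting error only. Exon lengths and positions came from GENCODE M21, promoter windows from RefSeq.

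The factors and lists were chosen with earlier results of these data known. Named are the 9 factors, in each list the genes with an unadjusted p under 0.05 and the 3 with the most reads, and marker genes by level; others are stated. Maf had no promoter window. Some listed genes are not reported here.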

Additional observations from a re-analysis of the deposited data

How the results depend on the processing

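Under 16 alternatives the count of all genes at an adjusted p under 0.05 was 0 in each by limma, edgeR or DESeq2. The count of factors with an unadjusted p under 0.05 was 0 by limma and 1 by edgeR with TMM, by edgeR with DESeq2 size factors and by edgeR with the replicate block, each time Prdm1, and 0 to 2 on leaving out a library, the 2 being Prdm1 and Batf without PBS 2, where 1858 of all 11392 genes (16.3%) passed. In those fits a lone sample is assumed to vary like the other group. The count of listed genes other than the factors was 2, Ccr6 and Il13, of which Il13 passed the filter on low counts through the TSLP libraries alone. It was 1 with a mean normalized count of at least 100 and 1 with a pseudocount of 0.5, 3 with no filter on low counts and 3 with no variance trend, and 0 to 20 on leaving out a library, the 20 being in that same fit without PBS 2. The median of the factors ranged from −0.13 to 0.14 on leaving out a library. The log2 fold change of Tbx21 reversed to 0.0057 with the trend over exon length removed. On leaving out a library, those of Gata3 (−0.45 to 0.24), Nfil3 (−0.54 to 0.13), Maf (−0.15 to 0.14), Bcl6 (−0.17 to 0.16) and Id2 (−0.059 to 0.41) changed sign. The factors whose groups do not overlap numbered 4, and 5 to 8 on leaving out a library, a choice made after seeing the data, like the list medians without a library, and one by which 56.8% to 76.3% of all genes pass. The number of the 9 factors that kept their rank was 5 with the longest protein-coding transcript, 7 over PBS alone, 3 by normalized count without a length, 2 in PBS 1 and 7 in PBS 2.

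The replicate numbers do not pair the samples by the labels, and the deviations of PBS 1 and TSLP 1 from their group means correlated at 0.0248 across 8174 genes. With the replicate block, limma gave a factor count of 0 at an unadjusted p under 0.05, beside 258 of all 11392 genes. There edgeR gave 1, beside 215 of all 11392 genes. At 2 samples a group, the 95% intervals of the factors reached from 0.97 (log2) in width for Irf4 to 2.45 for Tbx21.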

Other observations

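Genes of resting Treg cells, which effector factors such as BLIMP-1 oppose, were among the most abundant listed. Ets1, Ccr7 and Satb1 had the most reads of 10 such genes, and Ccr7 was at 860 RPKM. With TSLP 6 were higher and 4 lower, the median log2 fold change being 0.03 (0.02 to 0.05 with a library left out) and 0 at an unadjusted p under 0.05 by limma. Klf2, a factor that keeps T cells circulating and was named after its values were seen, had 3281 and 1811 reads (PBS) against 2109 and 1437 (TSLP). Its groups overlapped (log2 fold change −0.47, unadjusted p = 0.145 and adjusted p = 0.9999 by limma). Of 9 Treg and T cell identity genes 8 were higher and 1 lower with TSLP (median 0.18), and 0 had an unadjusted p under 0.05 by limma. Without PBS 1, the library lowest in Foxp3, 6 were higher and 3 lower, and the median was 0.02, while without PBS 2 it was 0.30.

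Of 10 follicular helper genes, which go with BCL6, 8 were tested, 6 higher and 2 lower, with a median of 0.15 (from 0.02 without PBS 1, with 4 higher, to 0.16 without TSLP 2) and 0 at an unadjusted p under 0.05 by limma. Icos, Pdcd1 and Btla had the most reads, and Il21 had 21 reads in TSLP 1 and 0 elsewhere. Of the type 17 cytokine genes, Il17a had 26 reads in PBS 1 and 0 in PBS 2, with 5 and 1 with TSLP, and Il17f had 26 in TSLP 1 and 0 elsewhere.

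The genes whose 4 log2 values, each set against their own mean, lay closest to those of Irf4 among 8173 genes were Lmnb1, Sesn3 and Hace1, at distances of 0.0147, 0.0171 and 0.0263 in log2 units. Those closest to Prdm1 were Tipin, Spg20 and Lrrc8b, at 0.126, 0.142 and 0.144. The likeness is over 4 libraries.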
